A study of Saccharomyces cerevisiae with 18 samples.

Results

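The genes described here are 10 Saccharomyces cerevisiae genes of heme metabolism, taken by their systematic names from the 5739 genes with a value on every array. Of these, 8 encode the enzymes of heme synthesis (HEM1, YDR232W; HEM2, YGL040C; HEM3, YDL205C; HEM4, YOR278W; HEM12, YDR047W; HEM13, YDR044W; HEM14, YER014W; HEM15, YOR176W) and 2 encode heme-responsive transcription factors (HAP1, YLR256W; ROX1, YPR065W). All 10 were measured on all 18 arrays. The study compared 3 ways of labeling cDNA for NimbleGen arrays, using RNA of the engineered yeast strains EPY330 and EPY338. Both strains were grown for 24 h at 30°C in the inducing medium YPG, RNA of 3 cultures was pooled for each strain, and each pool was labeled in triplicate with the direct random, the indirect and the ds-cDNA method. The sources used here give neither the genotype by which EPY330 differs from EPY338 nor the strain background, so the comparison is that of the named strains. Each triplicate repeats the labeling of 1 pool, so p-values measure the spread of labeling and hybridization and not that between cultures.

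Heme is the iron-containing porphyrin that cytochromes, catalases and several oxygen-using enzymes carry. Yeast makes it from glycine and succinyl-CoA along a path that begins in the mitochondrion, passes through the cytosol and ends in the mitochondrion, where the last enzyme inserts iron. Heme also reports the supply of oxygen to the nucleus. With heme bound, Hap1 activates genes of respiration and, among others, ROX1, whose product represses genes used in low oxygen. In the laboratory strain S288C the HAP1 gene carries a Ty1 transposon that weakens its product, and whether EPY330 and EPY338 carry it is not given in the sources used here.

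All values are log2 intensities, summarized from the probes of a gene by the authors. The array medians lay between 9.99 and 10.12 and the lowest and highest values were 7.25 and 15.88. Probes differ between genes, so levels are compared only within a gene. Fold-changes are EPY330/EPY338, and a gene called at 95% confidence had an adjusted p under 0.05 with limma (Benjamini-Hochberg over all 5739 genes). The median replicate SD of the 10 genes was 0.075 on direct random, 0.080 on indirect and 0.141 on ds-cDNA arrays, beside 0.073, 0.102 and 0.112 over all genes.

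ROX1 was the 1 gene of the 10 that was called with every labeling method, and it was higher in EPY330 each time. HEM15, encoding ferrochelatase, and HEM14, encoding protoporphyrinogen oxidase, were lower in EPY330 and were called with the direct random method. The other 7 genes were not called with any method. With the direct random method 3 of the 10 genes were thus called, where 22.4% of all genes were. With the indirect method 1 of 10 was called, where 9.08% of all genes were, and with ds-cDNA 1 of 10, where 6.33% were. These shares lay near those of all genes. At an unadjusted p under 0.05 the counts were 3, 3 and 2 of 10, beside 37.3%, 25.4% and 24.3% of all genes.

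ROX1 encodes the repressor of hypoxic genes. With the direct random method its log2 intensity was 12.16, 12.21 and 12.25 in EPY330, against 11.65, 11.77 and 11.59 in EPY338. Indirect arrays gave 11.76, 11.74 and 11.68 in EPY330, against 10.96, 10.93 and 10.98 in EPY338. Those labeled as ds-cDNA gave 13.36, 13.57 and 13.44 in EPY330, against 12.98, 13.10 and 13.12 in EPY338. Every EPY330 array thus lay above every EPY338 array of the same method. Of the 10 genes, ROX1 and HEM15 were separated in 1 direction with all 3 methods, as were 10.5% of all genes. A call with all 3 in 1 direction was made for 1 of 10, and for 3.31% of all genes. The ROX1 fold-change was 1.45 (95% confidence interval 1.33 to 1.59, adjusted p 0.000845 with limma) with the direct random method. Indirect labeling gave 1.71 (1.55 to 1.88, adjusted p 0.000127 with limma) and ds-cDNA labeling 1.31 (1.16 to 1.48, adjusted p 0.0312 with limma). Leaving out any single array kept the direct random and indirect calls. The ds-cDNA call of ROX1 was lost without any 1 of its 6 arrays, with adjusted p between 0.0514 and 0.0872, at log2 fold-changes between 0.34 and 0.44.

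**Figure D1:**
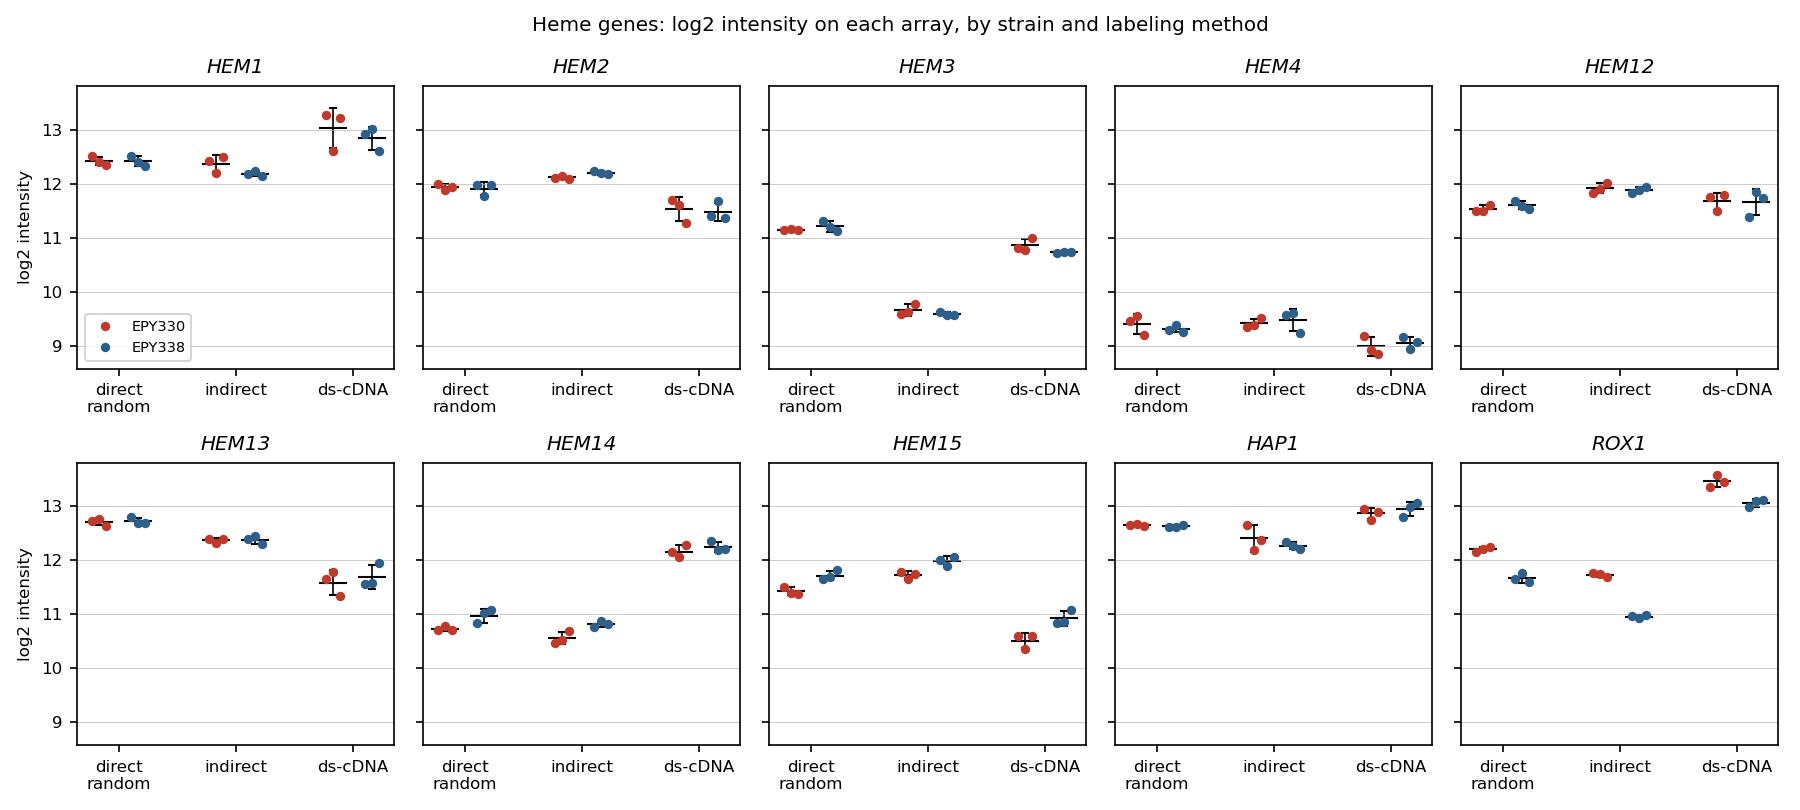
Log2 intensity of the 10 heme genes (vertical axis, shared by the panels) for direct random, indirect and ds-cDNA labeling. Points are single arrays of EPY330 (red) and EPY338 (blue), and black bars give the mean and SD of 3 arrays. The ROX1 points of EPY330 lie above those of EPY338 with each method, those of HEM15 lie below, and those of HEM13 overlap.

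HEM15 encodes the enzyme that inserts iron into protoporphyrin IX, the last step of the path. Its log2 intensity with the direct random method was 11.50, 11.39 and 11.37 in EPY330, against 11.65, 11.68 and 11.81 in EPY338. On indirect arrays it was 11.79, 11.66 and 11.75 in EPY330, against 12.01, 11.90 and 12.06 in EPY338. On ds-cDNA arrays it was 10.59, 10.35 and 10.59 in EPY330, against 10.83, 10.86 and 11.08 in EPY338. HEM15 was the only enzyme gene of the 8 whose EPY330 arrays lay below all EPY338 arrays with each method. Its fold-change was 0.817 (95% confidence interval 0.742 to 0.901) on direct random, 0.837 (0.748 to 0.937) on indirect and 0.750 (0.636 to 0.885) on ds-cDNA arrays. The adjusted p with limma was 0.0141, 0.0627 and 0.0608, so that HEM15 passed 95% confidence with the direct random method alone. The direct random call was kept without any single array (adjusted p 0.0187 to 0.0469) and lost with the methods' t-test (0.0699). With the replicate number as a block, HEM15 was called with the indirect method (adjusted p 0.0468 with limma). The labels give no reason for pairing arrays by number. The indirect call was also gained with a variance trend (0.0455) and in 1 fit of all 18 arrays (0.0404). With ds-cDNA, HEM15 was called with a variance trend (0.0352), without the dimmest 25% of genes (0.0203) and in 1 fit of all arrays (0.0019).

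HEM14 encodes the enzyme of the step before, which oxidizes protoporphyrinogen IX. With the direct random method its log2 intensity was 10.70, 10.78 and 10.70 in EPY330, against 10.83, 11.03 and 11.07 in EPY338. The indirect arrays gave 10.47, 10.52 and 10.68 in EPY330, against 10.77, 10.88 and 10.82 in EPY338. The ds-cDNA arrays gave 12.15, 12.05 and 12.28 in EPY330, against 12.36, 12.18 and 12.20 in EPY338. The strains were thus separated with the direct random and indirect methods and overlapped with the ds-cDNA method. Counted over the 10 genes, 3 were separated by strain with the direct random method (41.3% of all genes were), 4 with indirect labeling (30.2%) and 3 with labeling as ds-cDNA (29.2%). The HEM14 fold-change was 0.841 (95% confidence interval 0.753 to 0.940) on direct random, 0.831 (0.737 to 0.937) on indirect and 0.940 (0.821 to 1.08) on ds-cDNA arrays, at an adjusted p with limma of 0.0387, 0.0666 and 0.577. The direct random call of HEM14 was lost without EPY330 replicate 1, 2 or 3 (adjusted p 0.0986, 0.062 and 0.102) and without EPY338 replicate 2 or 3 (0.115 and 0.103). It was kept without EPY338 replicate 1 (0.00886).

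HEM14 is the only one of the 10 genes that overlaps another gene in the R64 annotation. Its neighbour BUD25 (YER014C-A) lies on the opposite strand, as its systematic name shows. BUD25 had log2 intensities between 7.29 and 7.32 on the 12 direct random and indirect arrays, close to the lowest value of the table. On the ds-cDNA arrays they lay between 12.35 and 12.47. No difference is given, since values this close to the lowest set only a limit. The study describes the ds-cDNA labeling product, for the array in general, as including sense-strand material that the probes do not capture. It does not discuss genes that overlap on opposite strands, as BUD25 and HEM14 do. The part of this overlap in the ds-cDNA values of HEM14 was not tested. On the ds-cDNA arrays BUD25 did not pass the test between strains, with a fold-change of 0.980 (95% confidence interval 0.896 to 1.07).

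HEM1 encodes 5-aminolevulinate synthase, which makes the first precursor from glycine and succinyl-CoA. Its log2 intensity averaged 12.42 ± 0.08 in EPY330 and 12.42 ± 0.10 in EPY338 with the direct random method (SD, n = 3 each). After indirect labeling the averages were 12.37 ± 0.16 in EPY330 and 12.19 ± 0.05 in EPY338, and with the ds-cDNA method 13.02 ± 0.37 in EPY330 and 12.84 ± 0.22 in EPY338 (SD, n = 3 each). The HEM1 arrays of the strains overlapped with each method, at fold-changes of 1.00, 1.14 and 1.14. The widest interval of any of the 10 genes was that of HEM1 with the ds-cDNA method, 0.812 to 1.59.

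HEM2, HEM3, HEM4 and HEM12 encode the cytosolic enzymes that build the porphyrin ring, from porphobilinogen synthase (HEM2) over porphobilinogen deaminase (HEM3) and uroporphyrinogen III synthase (HEM4) to uroporphyrinogen decarboxylase (HEM12). Their fold-changes lay between 0.944 and 1.09 and none was called with any method. The HEM2 values on indirect arrays were 12.11, 12.14 and 12.09 in EPY330, against 12.23, 12.20 and 12.17 in EPY338, and did not overlap (fold-change 0.944, 95% confidence interval 0.860 to 1.04). The HEM3 values on ds-cDNA arrays were 10.81, 10.78 and 10.99 in EPY330, against 10.72, 10.73 and 10.74 in EPY338, also without overlap (fold-change 1.09, interval 0.973 to 1.23). In the other combinations of these 4 genes and methods the strains overlapped.

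HEM13 encodes coproporphyrinogen oxidase, which uses oxygen, and its transcription is repressed by Rox1. Its log2 intensity on direct random arrays was 12.73, 12.76 and 12.64 in EPY330, against 12.80, 12.69 and 12.69 in EPY338. Indirect labeling gave 12.40, 12.31 and 12.39 in EPY330, against 12.39, 12.44 and 12.30 in EPY338. Labeling as ds-cDNA gave 11.65, 11.78 and 11.33 in EPY330, against 11.56, 11.57 and 11.95 in EPY338. The strains overlapped with every method. The HEM13 fold-change was 0.993 (95% confidence interval 0.912 to 1.08) on direct random, 0.994 (0.895 to 1.10) on indirect and 0.929 (0.720 to 1.20) on ds-cDNA arrays. The direct random and indirect intervals leave out changes as large as those of ROX1 and HEM15 with the same method.

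HAP1 encodes the heme-binding activator. Its log2 intensity averaged 12.65 ± 0.02 in EPY330 and 12.63 ± 0.03 in EPY338 with the direct random method (SD, n = 3 each). For the indirect method the averages were 12.40 ± 0.25 in EPY330 and 12.27 ± 0.07 in EPY338, and with the ds-cDNA method 12.86 ± 0.10 in EPY330 and 12.95 ± 0.13 in EPY338 (SD, n = 3 each). The HAP1 fold-changes of 1.02, 1.10 and 0.942 were not called (adjusted p with limma 0.711, 0.541 and 0.628), and the strains overlapped with each method. Counted by sign alone, 5 of the 10 genes (HEM1, HEM13, HEM14, HEM15 and ROX1) had a log2 fold-change of 1 sign with all 3 methods, as had 57.3% of all genes.

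**Figure D2:**
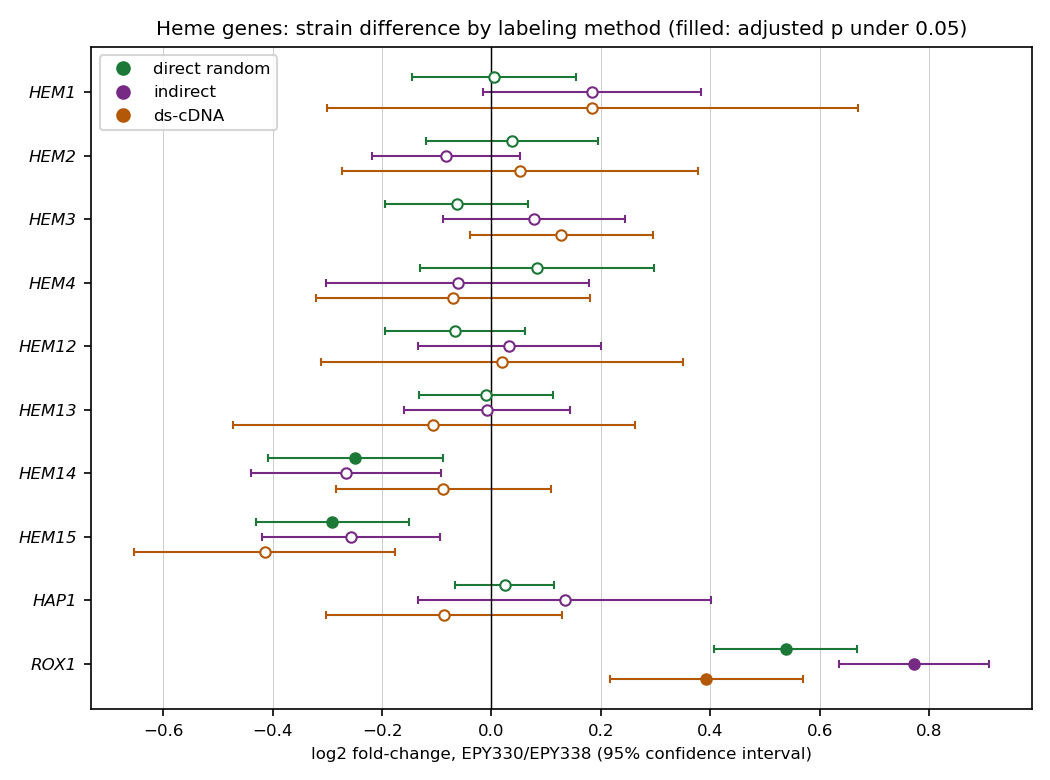
Log2 fold-change EPY330/EPY338 of the 10 heme genes (horizontal axis) with the direct random (green), indirect (purple) and ds-cDNA (orange) methods. Bars are 95% confidence intervals from limma, and filled points passed an adjusted p of 0.05. ROX1 lies to the right of 0 with all 3 methods (0.54, 0.77 and 0.39), and HEM15 to the left (-0.29, -0.26 and -0.41).

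Whether the strain difference of a gene depended on the labeling was tested in limma on the 18 arrays together, as the interaction between strain and labeling. None of the 10 genes differed at 95% confidence between direct random and indirect labeling (0% of all genes did), between direct random and ds-cDNA (0.575%) or between indirect and ds-cDNA (0.697%). At an unadjusted p under 0.05 the number was 1 of 10, 0 of 10 and 1 of 10, in each case ROX1, beside 5.66%, 10.0% and 11.5% of all genes. Its log2 fold-change was 0.38 ± 0.09 (SE) higher with the indirect than with the ds-cDNA method, with an adjusted p of 0.0667. ROX1 passed the test after median centring (adjusted p 0.0424) and without ds-cDNA replicate 2 of EPY330 (0.0297) or replicate 1 of EPY338 (0.0483), and over all alternatives its adjusted p ran up to 0.176. A call of HEM14 or HEM15 with 1 method and not with another was therefore not shown to be a difference between methods.

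The level that the arrays reported for a gene differed between the labeling methods. The cDNA hybridized differed too, at 5.0 μg for direct random, 0.3 μg for indirect and 4.0 μg for ds-cDNA labeling. The indirect method also used another dye, and the scanner gain was set for each array. The parts of these factors cannot be told apart. Between direct random and indirect arrays 8 of the 10 genes differed in mean log2 intensity over both strains at 95% confidence, where 64.5% of all genes did. Between direct random and ds-cDNA arrays 9 of 10 differed (87.1% of all genes) and between indirect and ds-cDNA arrays 10 of 10 (89.0%). ROX1 averaged 11.94 on direct random, 11.34 on indirect and 13.26 on ds-cDNA arrays, a difference of -1.92 ± 0.04 (SE) log2 units between indirect and ds-cDNA arrays. HEM14 averaged 10.85, 10.69 and 12.20 and was likewise highest with the ds-cDNA method. HEM3 was lowest with the indirect method, at 9.63, against 11.18 with the direct random and 10.80 with the ds-cDNA method. HEM13 (12.72, 12.37 and 11.64) and HEM15 (11.57, 11.86 and 10.71) were lowest with the ds-cDNA method, as were HEM2 (11.92, 12.16 and 11.51) and HEM4 (9.35, 9.45 and 9.02). HAP1 (12.64, 12.34 and 12.91) and HEM1 (12.42, 12.28 and 12.93) were highest with it. The pairs that were not called were HEM1 and HEM4 between direct random and indirect arrays and HEM12 (11.57, 11.90 and 11.67) between direct random and ds-cDNA arrays.

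Genes that respond to oxygen or heme were followed in 5 lists with 52 genes besides the 10. The lists were chosen with earlier results of these data known. Their counts and medians are therefore a description and no independent result. The hypoxic list held 14 genes that yeast uses in low oxygen, several of them known targets of Rox1. On direct random arrays 6 of them were called lower in EPY330 and 2 higher, on indirect arrays 6 lower and 1 higher, and on ds-cDNA arrays 4 lower and none higher. Over all genes 11.4%, 4.60% and 2.56% were called lower with these methods. The median log2 fold-change of the list was -0.18, -0.265 and -0.247, beside -0.009, -0.023 and 0.002 over all genes. The count with the ds-cDNA method was 1 without EPY330 replicate 1, 2 or 3 or EPY338 replicate 2, and 2 without EPY338 replicate 3. For direct random it was 5 in place of 8 without EPY330 replicate 1 or EPY338 replicate 1, 2 or 3, and with the indirect method 4 in place of 7 without EPY330 replicate 2 or 3.

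COX5B, encoding the hypoxic form of cytochrome c oxidase subunit 5, was lower in EPY330 with all methods. Its log2 intensity was 10.95, 10.82 and 10.98 in EPY330, against 11.57, 11.35 and 11.40 in EPY338, with the direct random method. It was 11.29, 11.38 and 11.18 in EPY330, against 11.99, 11.94 and 11.95 in EPY338, with the indirect method, and 8.92, 8.75 and 8.74 in EPY330, against 9.44, 9.52 and 9.62 in EPY338, with the ds-cDNA method. The strains did not overlap, and the COX5B fold-changes of 0.697, 0.627 and 0.605 were called under every alternative tried. CYC7, encoding the second isoform of cytochrome c, was called with each method at fold-changes of 0.880, 0.766 and 0.636. Its calls were lost in 5, 5 and 4 of the 6 fits that left out an array (adjusted p up to 0.0812, 0.127 and 0.0851). They were also lost in 3, 1 and 2 of the 7 other alternatives (adjusted p up to 0.245, 0.163 and 0.122). TIR2, encoding a cell wall mannoprotein, had fold-changes of 0.763, 0.701 and 0.568, and its ds-cDNA call was lost without any 1 of the 6 arrays (adjusted p 0.0521 to 0.123). The ds-cDNA call of TIR2 was also lost in 2 of the 7 other alternatives (adjusted p up to 0.163).

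HMG2, encoding the HMG-CoA reductase isoform of low oxygen, was called with the direct random and indirect methods (fold-changes 0.724 and 0.746) and had 0.789 with ds-cDNA (adjusted p 0.105 with limma). SUT1, encoding a regulator of sterol uptake, behaved likewise, with fold-changes of 0.627 and 0.717, and 0.778 with ds-cDNA (adjusted p 0.059 with limma). The indirect calls were lost in 4 and 5 of the 6 fits without 1 array for HMG2 and SUT1. They were also lost in 1 and 2 of the 7 other alternatives (adjusted p up to 0.146 and 0.192). OLE1, encoding the oxygen-using fatty acid desaturase, went the other way, with fold-changes of 1.34 and 1.44 with these methods and 1.10 with ds-cDNA (adjusted p 0.725 with limma). The remaining calls of the hypoxic list, named after their values were seen, were made with 1 method each. They were FET4 (1.23) and DAN1 (0.863) with direct random, ANB1 (0.609) with indirect and AAC3 (0.831) with ds-cDNA labeling. AAC3 lay at 7.44 to 7.48 on direct random and 7.49 to 7.64 on indirect arrays. Those values are close to 7.25, the lowest of the table, so a change with these 2 methods could hardly be seen.

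The list of genes that heme activates in air, through Hap1 or the Hap2/3/4/5 complex, held 10 genes. It too was chosen with earlier results of these data known, so its counts are a description. In EPY330, direct random labeling called 4 of them higher and 1 lower, indirect labeling 3 higher and ds-cDNA labeling 2 higher, where 11.0%, 4.48% and 3.76% of all genes were called higher. The median log2 fold-change was 0.14, 0.18 and 0.35 with the 3 methods. CYC1, encoding the main cytochrome c, had log2 intensities with the direct random method of 12.20, 12.11 and 12.23 in EPY330, against 11.51, 11.62 and 11.40 in EPY338. Its fold-change was 1.60, 1.65 and 1.66 with the 3 methods, and each call was kept without any single array. The ds-cDNA call of CYC1 was lost with the methods' t-test (adjusted p 0.0561). CTT1, encoding cytosolic catalase T, had 1.40, 1.40 and 1.41, and its ds-cDNA call was lost in 5 of 6 fits without 1 array (adjusted p up to 0.0915). Its direct random and indirect calls were each lost in 1 of the 7 other alternatives (adjusted p up to 0.0543 and 0.0678). COX6, a subunit of cytochrome c oxidase, was called with the direct random and indirect methods (1.15 and 1.20) and lost these calls in 3 and 5 of 6 such fits. With the replicate number as a block its indirect call was lost too (adjusted p 0.0519). The other calls of this list, named after their values were seen, were COX4 (1.34) and HMG1 (0.844) with the direct random method. The list's count was 3 in place of 5 with the direct random method without EPY330 replicate 2 or EPY338 replicate 3. For ds-cDNA it was 1 in place of 2 without EPY330 replicate 2 or 3 or any EPY338 array.

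**Figure D3:**
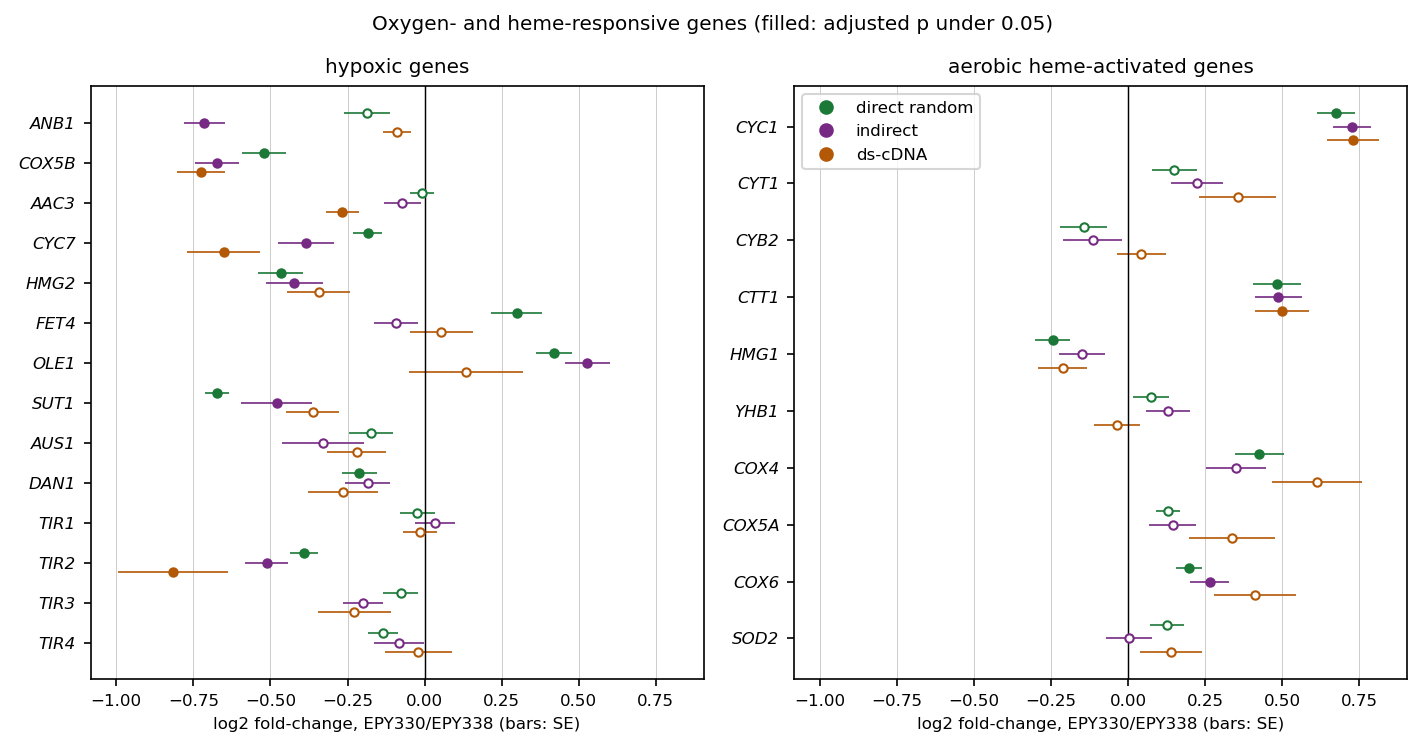
Log2 fold-change EPY330/EPY338 (horizontal axis, bars are SE from limma) of the 14 hypoxic genes (left) and the 10 genes activated by heme in air (right), with the direct random (green), indirect (purple) and ds-cDNA (orange) methods. Filled points passed an adjusted p of 0.05. COX5B, CYC7 and TIR2 lie left of 0 and CYC1 and CTT1 right of 0 with filled points for all 3 methods.

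The 9 partner regulators (the Hap2/3/4/5 subunits, Mot3, the corepressor Tup1 and Cyc8, and the sterol regulators Upc2 and Ecm22) gave 1 gene higher (HAP4, fold-change 1.23) and 3 lower (HAP2, 0.801; HAP5, 0.892; UPC2, 0.838) on direct random arrays, all named after their values were seen. None was called on indirect or ds-cDNA arrays by limma as used here or by the methods' t-test, and 5 and 2 had an unadjusted p under 0.05, where 25.4% and 24.3% of all genes had. On indirect arrays the count was 2 without EPY338 replicate 3 and after quantile normalization, and 1 with the replicate block, a variance trend, median centring, in a fit of all 18 arrays and without the dimmest 25% of genes. On ds-cDNA arrays it was 1 with a variance trend. The 13 genes of heme handling and of the branch to siroheme gave 2 higher and 3 lower genes with direct random, 1 higher and 1 lower with indirect, and 2 higher with ds-cDNA labeling. For this list, the partner regulators and the other heme proteins alike, the share of all genes called is 22.4%, 9.08% and 6.33%. Besides HMX1 and DAP1 these were MRS4 (1.39), COX10 (0.854) and MRS3 (0.838) with direct random and MET8 (1.21) with ds-cDNA labeling, named after their values were seen. The count of 5 with direct random labeling was 3 without any 1 EPY330 array or EPY338 replicate 1, and 2 without EPY338 replicate 2. That of 2 with indirect labeling was 1 without EPY330 replicate 1 or 3 or EPY338 replicate 2, and that of 2 with ds-cDNA was 1 without EPY330 replicate 1 or 3 or EPY338 replicate 1 or 2, and 0 without EPY338 replicate 3. HMX1, encoding the oxygenase that breaks heme down, was higher in EPY330 with each method, at fold-changes of 1.32, 1.51 and 1.34. Its ds-cDNA call was lost without EPY338 replicate 3 (adjusted p 0.0517), and its indirect call with the methods' t-test (0.113). On direct random and ds-cDNA arrays HMX1 was among the dimmest 25% of genes. The ds-cDNA values of HMX1 were 7.89 to 8.45, where the lowest of all genes was 7.25. DAP1, encoding a heme-binding protein of sterol synthesis, was called lower with the direct random and indirect methods (0.829 and 0.777). Either call was lost in 3 of 6 fits without 1 array, and the indirect call also with the methods' t-test (adjusted p 0.0669). Of the 6 other heme proteins 1 was called, FRE1, encoding a ferric reductase of the plasma membrane, at fold-changes of 1.72, 1.70 and 1.41. Its ds-cDNA call was lost without any 1 array (adjusted p 0.053 to 0.103). The methods' t-test called FRE1 neither with the indirect (adjusted p 0.0998) nor with the ds-cDNA method (0.122).

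The genes whose pattern was most like that of ROX1 were sought over all 5739 genes by Pearson correlation across the 18 arrays, after the mean of the 6 arrays of a method was subtracted. They were SKS1, encoding a protein kinase (r = 0.980), PDR5, encoding a drug efflux pump (0.977), and TIS11, encoding an mRNA-binding protein (0.975). The arrays share their RNA pools, so the coefficients are given as a description. After this subtraction, any gene whose strain difference is large beside its replicate spread correlates strongly with ROX1, in either sign. The strains were separated in 1 direction with all 3 methods for 10.5% of all genes. How many other genes had similar coefficients was not counted. SKS1 had fold-changes of 2.27, 2.67 and 1.87 in the order direct random, indirect and ds-cDNA, PDR5 had 3.94, 4.65 and 2.67, and TIS11 had 1.98, 2.30 and 1.62. These genes were chosen for following ROX1 over the same arrays, so their values describe them and are not independent of its pattern.

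**Figure D4:**
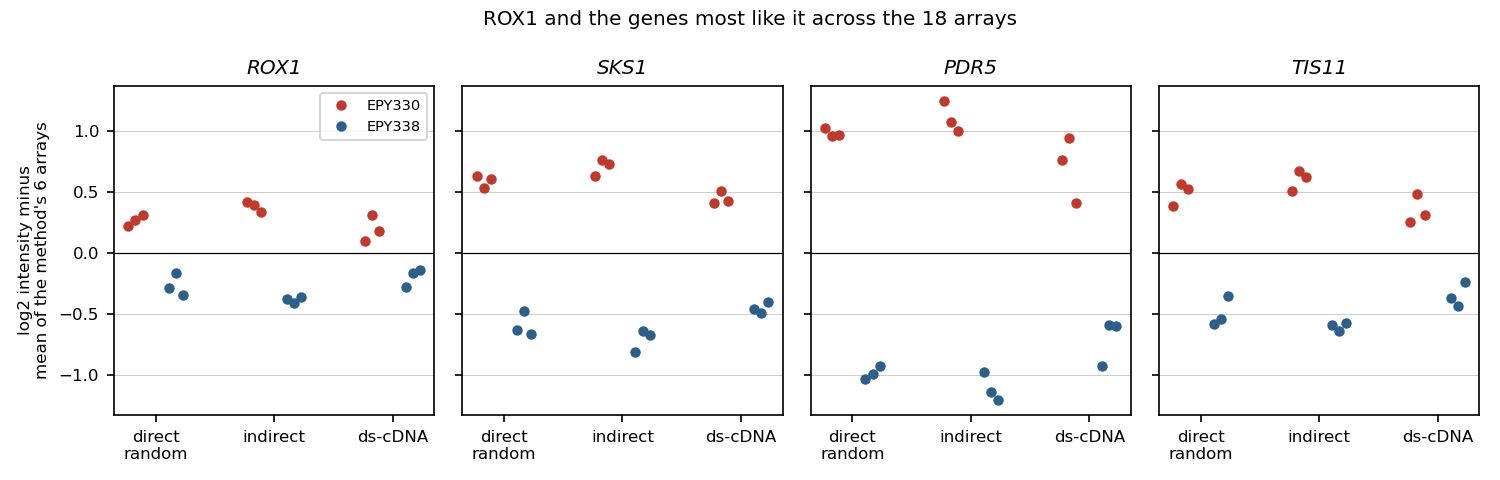
Log2 intensity minus the mean of the 6 arrays of the method (vertical axis) for ROX1, SKS1, PDR5 and TIS11 for direct random, indirect and ds-cDNA labeling. Points are single arrays of EPY330 (red) and EPY338 (blue). All EPY330 points lie above 0 and all EPY338 points below it.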

How the data were processed

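The deposited values are log2 intensities, a value for each gene on each array, which the authors made in ArrayStar from NimbleScan features with the RMA algorithm and quantile normalization. They are not relative to another sample, and which arrays were normalized together is not given in the sources used here. Of 5861 entries, 122 without values were left out. No filter on dim genes was used, and every column of the 18 arrays entered. Symbols came from the R64 table by systematic name (5733 of 5739 genes matched), and no coordinates are given because no source used here gives the probes' build. The number of arrays limits the precision.

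EPY330 and EPY338 were compared within the 6 arrays of each method with limma 3.58.1 in R 4.3.3 (lmFit, eBayes, 95% confidence intervals), with Benjamini-Hochberg adjustment over all genes. Methods and interactions were tested on all 18 arrays with 6 group means. The methods' t-test (equal variance, the same adjustment) was an alternative, as were 1 fit of all arrays, a replicate block, a variance trend, quantile normalization of the arrays of a method, median centring, leaving out the dimmest 25% of genes and leaving out each array. The limma and t-test steps were tested on simulated data with known changes. Named were the 10 genes, list genes called in 1 direction with at least 2 methods, the 3 genes most like a gene called with at least 2 methods, and overlapping genes. The members and lists were chosen with earlier results of these data known.

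Same-numbered arrays of the strains were checked for shared deviations from the group means. With the indirect method the correlations across genes were 0.123, 0.149 and 0.253, each over the limit of 0.1. Correlations of indirect arrays with different numbers ran from -0.321 to 0.205. Deviations from a group mean cancel within the group, so the correlations of a method are not independent. The check therefore cannot decide whether the arrays were paired. The labels give no reason for a pairing. Slides are not in the labels and could not enter a fit. Promoters were not analysed here. Figures were drawn with matplotlib 3.10.9.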

Additional observations from a re-analysis of the deposited data

Results flagged for a closer look

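For 4 of the genes named here the strain difference itself differed between the indirect and ds-cDNA methods (interaction of strain and method, limma on all 18 arrays, adjusted over all genes), as it did for 40 of 5739 genes (0.697%). SKS1, PDR5 and TIS11 were chosen for following ROX1, whose own log2 fold-change was 0.38 larger with the indirect method, so their differences are a description and no independent result. The log2 fold-change EPY330/EPY338 was 0.51 ± 0.09 (SE) larger with the indirect method for SKS1 (adjusted p 0.00852), 0.80 ± 0.16 for PDR5 (0.0304) and 0.51 ± 0.11 for TIS11 (0.0467). The SKS1 call was kept in all 18 fits that left out 1 array, that of PDR5 was lost in 6 of them (adjusted p up to 0.0937) and that of TIS11 in 16 (up to 0.127). With the replicate number as a block PDR5 (0.0506) and TIS11 (0.126) were not called. For ANB1, a gene chosen after its values were seen, the log2 fold-change differed by -0.625 ± 0.091 (SE, adjusted p 0.00126) with indirect against ds-cDNA labeling. The ds-cDNA values of ANB1, 7.34 to 7.46, lay close to the lowest of the table, 7.25, so its ds-cDNA fold-change and this difference are limited by the low end of the scale.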

How the results depend on the processing

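Under the alternatives, 365 of 412 values of the 10 genes kept their direction and their side of 95% confidence. Most of these values belong to results that were not called, so this share does not measure how stable the calls were. A call was lost in 16 values, all of HEM14 and HEM15 with direct random and ROX1 with ds-cDNA labeling. Besides the fits without 1 array, these calls were lost in 2, 1 and 2 of the 7 other alternatives. Of the 10 genes, the number called between strains with the direct random method was 1 with the methods' t-test and 2 to 3 without single arrays. With the indirect method it was 2 with a variance trend, 2 with the replicate block and 3 in 1 fit of all 18 arrays, and 1 without any single array. With the ds-cDNA method it was 0 with the methods' t-test, 0 with the replicate block, 0 without any single array, and 2 with a variance trend, without the dimmest 25% of genes and in 1 fit of all 18 arrays. With the direct random method the block gave 2, losing HEM14 (adjusted p 0.0534), and the ds-cDNA call it lost was ROX1 (0.0708). Of the other named genes, it lost the calls of CYC7 and COX6 with direct random and of CYC7, TIR2, CTT1, HMX1, FRE1 and TIS11 with ds-cDNA labeling, and of COX6 with indirect labeling. The same-numbered direct random and ds-cDNA arrays correlated between -0.187 and 0.023, so none was above the limit of 0.1 there. For the interaction of indirect and ds-cDNA labeling 1 gene passed after median centring, and 0 to 1 without single arrays. The block could not be fitted for levels between methods.

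Changes of sign were seen for values that were not called. Median centring gave -0.012 for HEM1 with the direct random method, and quantile normalization gave -0.010 for HEM12 with ds-cDNA. Without single arrays the log2 fold-change on direct random arrays ran from -0.042 to 0.055 for HEM1, -0.031 to 0.074 for HEM2, -0.036 to 0.026 for HEM13 and -0.017 to 0.001 for BUD25. With the indirect method it ran from -0.178 to 0.006 for HEM4, -0.015 to 0.080 for HEM12, -0.047 to 0.021 for HEM13 and -0.010 to 0.002 for BUD25. With ds-cDNA it ran from -0.033 to 0.177 for HEM2, -0.112 to 0.115 for HEM12, -0.202 to 0.023 for HEM13 and -0.052 to 0.003 for BUD25. The direct random and indirect values of BUD25 lay close to the lowest of the table. The causes were not tested.

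Counts of calls over all genes also depended on the test. The methods' t-test called 651 in place of 1288 genes with the direct random, 158 in place of 521 with the indirect and 128 in place of 363 with the ds-cDNA method. It called 5, 4 and 2 genes of the hypoxic list and 3, 1 and 0 of the genes activated by heme in air. For ds-cDNA, the hypoxic count of 4 was 7 with a variance trend and in a fit of all 18 arrays and 1 with the block, and the count of 2 genes activated by heme in air was 4 without the dimmest 25% of genes and 6 in a fit of all 18 arrays. With direct random labeling the block called 5 in place of 8 hypoxic genes. A single fit of the 18 arrays called 713, 880 and 994, the replicate block 924, 700 and 115, and a variance trend 1526, 664 and 599. Without single arrays the counts ran from 850 to 1026, 274 to 460 and 166 to 211. The interaction and level tests take the spread as equal between methods.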

Other observations

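ANB1, encoding a hypoxic form of the translation factor eIF5A and a known target of Rox1, was named after its values were seen. With the indirect method its log2 intensity was 8.36, 8.50 and 8.45 in EPY330, against 9.11, 9.15 and 9.20 in EPY338, a fold-change of 0.609 (adjusted p 0.000371 with limma). With the direct random method it was 7.82, 8.00 and 7.77 in EPY330, against 8.11, 7.94 and 8.10 in EPY338 (fold-change 0.879, adjusted p 0.113). With the ds-cDNA method it was 7.36, 7.35 and 7.34 in EPY330, against 7.44, 7.43 and 7.46 in EPY338 (0.940, adjusted p 0.292). The ds-cDNA values of ANB1 lay close to 7.25, the lowest of the table, so that its ds-cDNA fold-change is limited by the low end of the scale. ANB1 has a near-identical paralog, HYP2, and how far the probes tell them apart is not given in the sources used here.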
